A study of Rattus norvegicus with 6 samples.

Results

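The immediate early response genes described here are Fos (ENSRNOG00000008015), Fosb (ENSRNOG00000046667), Jun (ENSRNOG00000026293), Junb (ENSRNOG00000042838), Egr1 (ENSRNOG00000019422), Egr3 (ENSRNOG00000017828), Ier2 (ENSRNOG00000054344), Ier3 (ENSRNOG00000000827), Atf3 (ENSRNOG00000003745) and Nr4a1 (ENSRNOG00000007607), which were found by their symbols in the deposited table of gene expression. Each symbol matched 1 row, so that 10 of the 35291 genes in the table were followed. Testes of Sprague-Dawley rats, an outbred strain, were sequenced, with 3 samples from diabetic (DM) and 3 from non-diabetic (ND) rats. According to the methods, the DM rats had eaten a high-fat diet for a month, received streptozotocin, a toxin of the pancreatic beta cells, in a single intraperitoneal injection and were kept if their blood glucose passed a limit. Their testes were collected 8 weeks later. The ND rats received citrate buffer. The sources used here do not say whether the ND rats ate the high-fat diet, how long the tissue waited before extraction, at what hour it was taken or whether a sample is 1 animal. The samples are called rats below, the p-values measure only the spread between them, and the diet and streptozotocin cannot be told apart.

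Immediate early response genes are the first that a cell transcribes when a signal reaches it. Serum factors, hormones, cyclic AMP, calcium, mechanical strain and tissue handling switch them on within minutes, from transcription factors that are already present, and their short-lived mRNAs fade soon afterwards. In the testis the pituitary luteinizing hormone acts through its receptor and cyclic AMP on the Leydig cells of the interstitium, where the orphan nuclear receptor NR4A1 is one of the quickly induced factors and helps to drive steroid synthesis genes. Levels in dissected tissue can therefore follow both hormone stimulation and handling.

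The values are FPKM, fragments scaled to transcript length and sequencing depth, so that genes of different length can be compared. The table holds no read counts. Relative depth was estimated from the commonest ratio between a pair of rats among genes below 1 FPKM, which 23 to 53 genes shared. It was 0.966 to 1.09 in the DM rats and 0.893 to 1.02 in the ND rats against a mean of 1. Levels of the sampled tissue matched its label. The 5 spermatid markers summed to between 7370.2 and 10050.9 FPKM and the 6 Sertoli markers to between 264 and 332 FPKM over the rats, and no marker of the cell types examined was listed at 0 in all 6 rats.

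Promoter sequence was available for 5 of the 10 genes, Egr1, Nr4a1, Ier2, Junb and Fosb, in RefSeq (build GRCr8, 250 bases before to 50 bases after the start of the gene). Of these, 3 are shown that carry elements through which serum and cyclic AMP are known to act on such genes. Junb, not shown, also held 1 copy of the shorter core described below. The promoter of Egr1 (chr18:26736828-26737127, plus strand) held 2 CArG boxes, the binding motif of serum response factor, printed in capitals. A CArG box was found in 1.64% of the 33469 promoters searched on both strands. The promoter of Ier2 (chr19:40399123-40399422, plus strand) held the cyclic AMP response element TGACGTCA, in capitals, which 1.83% of all promoters held. The promoter of Nr4a1 (chr7:134259888-134260187, plus strand) held 4 copies of the shorter core of that element, TGACG or its reverse complement CGTCA, in capitals. Egr1 also held 2 copies of this core, left in small letters. The core was found in 21.2% of all promoters, and in 4 of the 5 promoters of these genes. It lies within the full element, so the Ier2 match counts in both. Further motifs were the AP-1 site TGANTCA, in 0 of the 5 promoters and 7.33% of all, and the EGR site GCGNGGGCG, in the promoter of Nr4a1 and 4.98% of all, both searched on both strands. TATAAA, searched on the forward strand, was in the promoter of Junb and in 8.80% of all. A match is a run of letters and does not show binding, and a missing match says only that these letters are not in the window.
Egr1: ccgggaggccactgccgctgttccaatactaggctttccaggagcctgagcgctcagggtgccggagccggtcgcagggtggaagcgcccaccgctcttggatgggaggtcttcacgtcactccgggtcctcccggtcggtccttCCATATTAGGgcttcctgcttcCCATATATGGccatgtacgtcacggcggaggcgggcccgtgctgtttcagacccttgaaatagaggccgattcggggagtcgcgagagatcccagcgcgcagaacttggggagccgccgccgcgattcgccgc
Ier2: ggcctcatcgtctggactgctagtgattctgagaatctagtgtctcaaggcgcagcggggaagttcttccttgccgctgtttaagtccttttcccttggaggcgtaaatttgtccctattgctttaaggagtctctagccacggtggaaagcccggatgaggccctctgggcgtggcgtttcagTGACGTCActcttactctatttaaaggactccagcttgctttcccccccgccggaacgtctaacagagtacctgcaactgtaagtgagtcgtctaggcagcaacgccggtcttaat
Nr4a1: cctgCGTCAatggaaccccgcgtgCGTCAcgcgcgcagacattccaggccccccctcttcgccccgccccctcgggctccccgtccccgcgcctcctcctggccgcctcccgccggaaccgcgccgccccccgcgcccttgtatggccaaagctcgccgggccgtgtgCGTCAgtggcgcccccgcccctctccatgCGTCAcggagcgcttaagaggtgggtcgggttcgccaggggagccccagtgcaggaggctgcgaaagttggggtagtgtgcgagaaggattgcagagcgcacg

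The immediate early response genes were expressed at low levels in every testis, and no difference between DM and ND rats was detected in any of the genes that could be tested across the whole table. All 10 genes were above 0 in all 6 rats, yet 6 of them had a mean below 1 FPKM, and each of the 10 lay under the median of 3.30 FPKM of the 16696 protein-coding genes. Egr3 had the highest mean, at 3.02 FPKM, which was above 48.7% of the protein-coding genes, and Atf3 the lowest, at 0.149 FPKM, which was above 16.2% of them. The order of mean levels was Egr3, Jun, Nr4a1, Junb, Ier3, Egr1, Ier2, Fos, Fosb and Atf3. Only at 2 places in that order were neighbours separate in range, between Nr4a1 and Junb and between Ier3 and Egr1, and Ier2 and Fos could not be ordered, as Ier2 was above Fos in 3 of 6 rats.

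**Figure D1:**
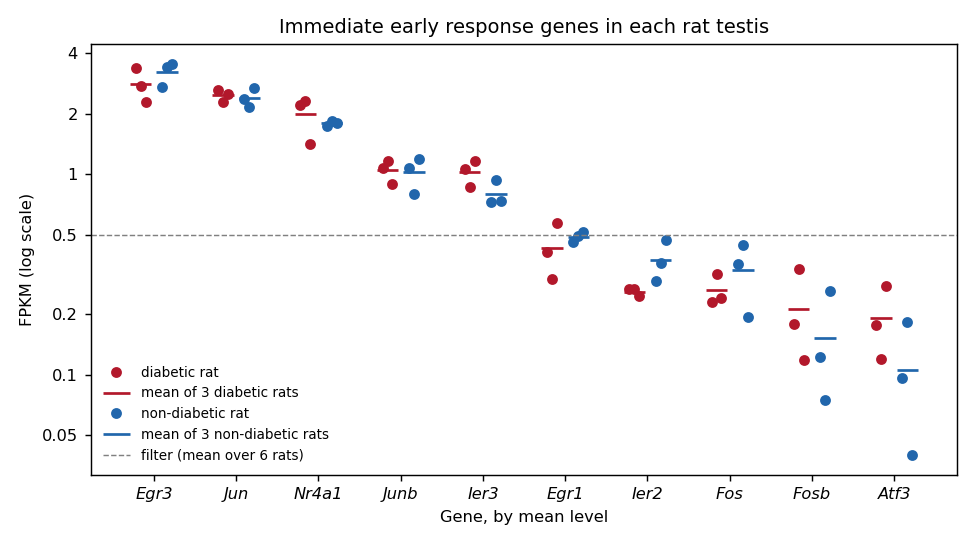
FPKM on a log scale (vertical axis) of each of the 10 genes (horizontal axis, ordered by mean level) in each of the 3 diabetic and 3 non-diabetic rats, with a line at each group's mean and a dashed line at the filter of 0.5 FPKM. The points of both groups are mixed for every gene except Ier2, whose 3 diabetic rats lie between 0.246 and 0.268 FPKM and below all 3 non-diabetic rats.

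The test was limited to genes whose 6 rats averaged 0.5 FPKM or more, and 5 of the 10 genes reached this level, namely Egr3, Jun, Nr4a1, Junb and Ier3. In limma, 0 of these 5 had an unadjusted p-value below 0.05, where 7.46% of the 20338 genes tested had one. An adjusted p-value below 0.05 was found for 0 of the 5, and for 0.0344% of all genes tested. Without the filter, 0 of the 10 genes had an unadjusted p-value below 0.05, against 6.64% of 30782 genes, and 0 had an adjusted one, against 0.00975%. The median log2 fold change (DM over ND, on the log2(FPKM + 0.1) scale) was 0.044 over the 5 genes and -0.021 over all genes tested. The summed level of the 10 genes was 10.7 ± 0.950 FPKM (SD, n = 3) in the DM rats and 10.7 ± 0.735 FPKM (SD, n = 3) in the ND rats.

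The AP-1 factors bind DNA as dimers of a JUN protein with a FOS, JUN or ATF protein. Jun, the gene of the central JUN subunit, was at 2.63, 2.27 and 2.51 FPKM in the DM rats and at 2.37, 2.15 and 2.68 FPKM in the ND rats. The groups overlapped, and both the highest and the lowest value belonged to ND rats. The highest value of Jun was 1.24 times the lowest, the narrowest range of the 10 genes. Its log2 fold change was 0.044 ± 0.14 (SE; limma, adjusted p = 0.974), and the 95% interval ran from 0.816-fold to 1.30-fold.

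Junb encodes a JUN protein that often restrains the activity of JUN. It was at 1.07, 1.16 and 0.894 FPKM in the DM rats and at 1.08, 0.796 and 1.18 FPKM in the ND rats, again with both extremes among the ND rats. The log2 fold change of Junb was 0.040 ± 0.24 (SE; limma, adjusted p = 0.986), within an interval of 0.700-fold to 1.51-fold.

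Fos, the prototype of the class and the usual partner of JUN, was at 0.231, 0.318 and 0.241 FPKM in the DM rats and at 0.357, 0.443 and 0.195 FPKM in the ND rats. The groups overlapped because 1 ND rat had the lowest value of all. The mean was 0.263 ± 0.0474 FPKM in the DM and 0.332 ± 0.126 FPKM in the ND rats (SD, n = 3 each), and the exact permutation test gave p = 0.6.

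Fosb, a second FOS protein, was at 0.178, 0.339 and 0.119 FPKM in the DM rats and at 0.122, 0.0748 and 0.262 FPKM in the ND rats. Its values spread over a 4.53-fold range that both groups filled (exact permutation test, p = 0.6). Fos and Fosb were both below Jun in every rat.

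Atf3 encodes a stress-induced factor that dimerises with JUN proteins and mostly represses transcription. It was at 0.178, 0.120 and 0.276 FPKM in the DM rats and at 0.0965, 0.183 and 0.0398 FPKM in the ND rats. Its range of 6.95-fold was the widest of the 10 genes, and the groups overlapped through 1 ND rat. The log2 difference of Atf3 was 0.52 (exact permutation test, p = 0.3). It was 0.11 with a pseudocount of 1 and 0.93 with one of 0.01, and it was 0.32 without DM rat 3 and 0.27 without ND rat 3. In the unfiltered fit its 95% interval ran from 0.786-fold to 2.63-fold, so that a doubling could not be told from no change at this level.

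The zinc finger factors of the EGR family bind GC-rich promoters. Egr1, which pituitary and gonadal cells are known to induce with hormone stimulation, was at 0.407, 0.299 and 0.572 FPKM in the DM rats and at 0.459, 0.493 and 0.515 FPKM in the ND rats. The 3 ND rats lay inside the range of the DM rats, and the coefficient of variation was 32.2% in the DM and 5.78% in the ND rats. The exact permutation test of Egr1 gave p = 0.5.

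Egr3 was at 3.39, 2.75 and 2.30 FPKM in the DM rats and at 2.71, 3.42 and 3.55 FPKM in the ND rats. The lowest value was in a DM rat and the highest in an ND rat, with overlap between them. Its log2 fold change was -0.20 ± 0.18 (SE; limma, adjusted p = 0.883), and the interval ran from 0.646-fold to 1.17-fold. It was -0.069 without DM rat 3 and -0.34 without DM rat 1. In every rat Egr3 was above Egr1.

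Ier2 and Ier3 are small genes without a DNA-binding factor of the classes above. Ier2, whose product acts in the nucleus, was at 0.266, 0.268 and 0.246 FPKM in the DM rats and at 0.295, 0.359 and 0.469 FPKM in the ND rats. Each DM rat was below each ND rat, and Ier2 was the only 1 of the 10 genes whose groups did not overlap. Of the 30782 genes above 0, 11.5% did not overlap, and 7.46% did so with the DM rats lower. The exact permutation test gave p = 0.1, the smallest that 3 rats against 3 allow. The log2 difference was -0.38, and in the unfiltered limma fit its adjusted p-value was 0.873 with an interval of 0.487-fold to 1.21-fold.

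Ier3, a gene linked to cell survival, was at 1.06, 0.863 and 1.16 FPKM in the DM rats and at 0.724, 0.936 and 0.737 FPKM in the ND rats. The highest 2 values belonged to DM rats and the lowest 2 to ND rats, with overlap in the middle. The DM mean was 1.03 ± 0.150 FPKM and the ND mean 0.799 ± 0.119 FPKM (SD, n = 3 each). For Ier3 the log2 fold change came to 0.33 ± 0.24 (SE; limma, adjusted p = 0.842), and its interval ran from 0.854-fold to 1.84-fold.

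Nr4a1, the nuclear receptor gene induced by luteinizing hormone, was at 2.22, 2.32 and 1.42 FPKM in the DM rats and at 1.74, 1.84 and 1.79 FPKM in the ND rats. The ND rats lay close together between DM rats that were above and below them. The coefficient of variation was 2.73% in the ND and 24.9% in the DM rats. It was also larger in the DM rats for Egr1 and Egr3, and nearly equal for Ier3. For Fos, Fosb, Jun, Junb, Ier2 and Atf3 it was larger in the ND rats, with 23.5% in the ND and 4.78% in the DM rats for Ier2. The log2 fold change of Nr4a1 was 0.11 ± 0.21 (SE; limma, adjusted p = 0.948), and the 95% interval ran from 0.766-fold to 1.52-fold. For none of the 5 tested genes did the interval reach a 2-fold change in either direction.

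**Figure D2:**
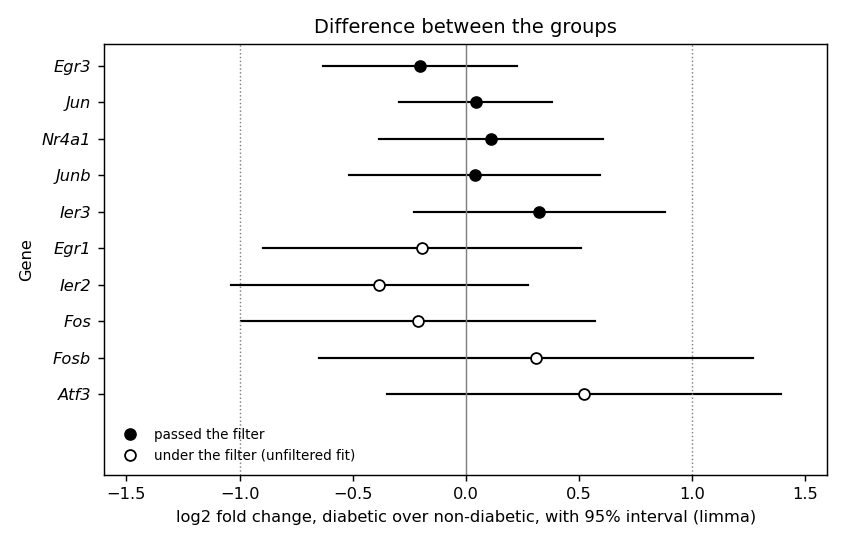
Log2 fold change of DM over ND rats (horizontal axis) with its 95% interval from limma for each gene (vertical axis, by mean level), with filled points for the 5 genes that passed the filter and open points, from the unfiltered fit, for the 5 below it. Every interval includes 0, and among the filled points the estimates lie between -0.20 and 0.33 with dotted lines marking a 2-fold change.

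The rats did not share 1 common direction over these genes. DM rat 3 had the highest value for Ier3, Atf3 and Egr1 and the lowest for Nr4a1, Egr3 and Ier2. ND rat 3 had the highest value for Egr3, Jun, Junb and Ier2 and the lowest for Atf3 and Fos. ND rat 2 was highest for Fos and lowest for Jun, Junb and Fosb. Averaged over the 10 genes, the deviation of a rat from each gene's own mean lay between -0.082, in ND rat 1, and 0.057, in DM rat 1, on the log2 scale. DM rat 1 was above the mean for 7 of the 10 genes, among them all 5 tested genes, by 0.064 for Junb to 0.237 for Nr4a1. It was below the mean for Fos, Egr1 and Ier2. Its summed level of the 10 genes was the highest, at 11.6 FPKM, with ND rat 3 next at 11.4 FPKM. The cause was not tested. Within groups, the SD on the log2 scale of the 5 tested genes had a median of 0.23, against 0.18 over all genes tested. Jun varied less than most genes, as 34.6% of the genes tested had a smaller SD, and Nr4a1 varied most of the 5, with 68.9% below it.

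**Figure D3:**
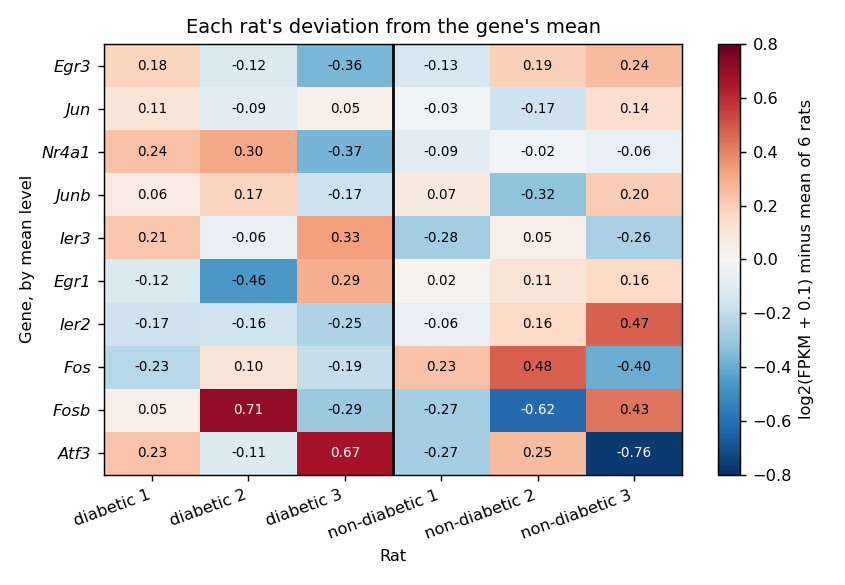
Deviation of each rat (columns) from the mean of the 6 rats for each gene (rows) in log2(FPKM + 0.1), with red above and blue below the mean and a black line between DM and ND rats. Red and blue cells are mixed in every column, and the strongest colours are in the lowest genes, Fosb and Atf3.

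By the rule for likeness, the mean standardised profile of the 5 tested genes was compared with that of 14984 other genes of at least 1 FPKM, and 28 of them had a Pearson correlation of at least 0.9 over the 6 rats. The closest were Rn60_6_0642.1 at 0.96, Spg7 at 0.96, Trim69 at 0.95, Gm10644 at 0.95 and AC128293.1 at 0.95. This is a description over 6 libraries and is no test.

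The wider set of fast-responding genes was described with lists of relatives, inhibitors, upstream factors and hormone targets. Of the 37 relatives found, 21 passed the filter, and 1 of them had an unadjusted p-value below 0.05 in limma, where 7.46% of all genes tested had one in either direction. It was Ctgf, the connective tissue growth factor gene. Ctgf was at 2.54, 2.98 and 3.43 FPKM in the DM rats and at 1.99, 1.97 and 1.29 FPKM in the ND rats, without overlap. Its log2 fold change was 0.75 ± 0.21 (SE; limma, unadjusted p = 0.00852, adjusted p = 0.487). Nr4a2, the nearest paralog of Nr4a1, was at 1.31, 1.59 and 1.32 FPKM in the DM rats and between 1.03 and 1.07 FPKM in the ND rats (log2 fold change 0.39; limma, unadjusted p = 0.0709, adjusted p = 0.712). With eBayes without trend, its unadjusted p-value from limma was 0.00843 and its adjusted one 0.443. The small GTPase gene Gem had a log2 fold change of 0.44 and the zinc finger gene Klf10 one of 0.25, with adjusted p-values of 0.729 and 0.734 from limma. The median over the 21 genes was 0.028.

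Of the 17 feedback inhibitors, which include MAP kinase phosphatases, mRNA-destabilising proteins and inhibitors of RAS, EGR and NF-kappa B signalling, 14 passed the filter and 0 had an unadjusted p-value below 0.05 in limma. Dusp1, the MAP kinase phosphatase that is itself an immediate early gene, was at 1.77, 1.73 and 2.42 FPKM in the DM rats and at 2.28, 2.85 and 2.62 FPKM in the ND rats. Its groups overlapped, with a log2 fold change of -0.38 (limma, adjusted p = 0.712). Spred1, an inhibitor of RAS signalling, had a log2 fold change of -0.33 (limma, adjusted p = 0.675). The median over the 14 genes was -0.057.

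All 25 upstream kinases and transcription factors found passed the filter, and 1 had an unadjusted p-value below 0.05 in limma. It was Rps6ka3, a kinase between ERK and CREB, at 3.72 ± 0.518 FPKM in the DM and 4.61 ± 0.180 FPKM in the ND rats (SD, n = 3 each). Its log2 fold change was -0.31 (limma, unadjusted p = 0.0463, adjusted p = 0.665), and the groups did not overlap. The unadjusted p-value of Rps6ka3 from limma was 0.0627 under median-ratio scaling and 0.0663 in the fit blocked on replicate number. It was between 0.0708 and 0.146 in 5 of the 6 fits that left out 1 rat and 0.0158 without DM rat 3. Elk4, a partner of serum response factor, had a log2 fold change of -0.59 with overlapping groups (limma, adjusted p = 0.712). The median over the 25 genes was -0.062.

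Glucocorticoids rise with handling and stress, and 13 rows of their receptor and targets passed the filter, of which 1 had an unadjusted p-value below 0.05 in limma. This was 1 of 2 rows labelled Nr3c1, the glucocorticoid receptor, at 3.56, 3.44 and 3.39 FPKM in the DM rats and at 4.09, 4.40 and 5.58 FPKM in the ND rats (log2 fold change -0.41, unadjusted p = 0.0196, adjusted p = 0.577 from limma). Its unadjusted p-value from limma was 0.0505 without DM rat 3 and 0.0533 without ND rat 3. The other row of Nr3c1 had a log2 fold change of -0.24 (limma, adjusted p = 0.806), and reads could have been divided between the rows. The metallothionein gene Mt1 had a log2 fold change of -0.39 and Klf9 one of -0.096, with adjusted p-values of 0.712 and 0.831 from limma. The unadjusted p-value of Mt1 from limma was 0.0708, and 0.0440 in the blocked fit. Outside the luteinizing hormone list, 3 of 72 genes tested in these lists had an unadjusted p-value below 0.05, or 4.17%, which is below the 7.46% of all genes.

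The luteinizing hormone and cyclic AMP response list of Leydig cells held the largest differences of the lists. Of the 11 genes of that list that passed the filter, 6 were lower in the DM rats at an unadjusted p-value below 0.05 in limma, where 4.99% of all genes were. For these 6 no DM rat reached an ND rat, as for 7.46% of the 30782 genes above 0. The 6 had been picked by their p-value, so this separation adds no support. Lhcgr, the luteinizing hormone receptor, was at 2.32, 2.32 and 2.29 FPKM in the DM rats and at 4.45, 5.03 and 4.68 FPKM in the ND rats. Its log2 fold change was -0.999 ± 0.11 (SE; limma, adjusted p = 0.0559). Scarb1, which brings cholesterol into the cell, was at 4.16 ± 0.373 FPKM in the DM and 8.38 ± 0.366 FPKM in the ND rats (SD, n = 3 each; limma, adjusted p = 0.0530).

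Star, which carries cholesterol into mitochondria and is a target of NR4A1, was at 16.7, 7.70 and 22.8 FPKM in the DM rats and at 38.8, 41.5 and 24.5 FPKM in the ND rats. The log2 fold change of Star was -1.24 (limma, unadjusted p = 0.0152, adjusted p = 0.551), and it was -0.80 without DM rat 2. Its unadjusted p-value from limma was 0.0514 without ND rat 2. Insl3, a peptide hormone gene of Leydig cells, had a log2 fold change of -1.62 and Cyp11a1, the first enzyme of steroid synthesis, one of -1.16, with adjusted p-values of 0.484 and 0.486 from limma. Without DM rat 3 the adjusted p-value of Insl3 from limma was 0.0445, and with any other rat left out it was 0.539 to 0.852. Cyp17a1 was the only gene of the list with an adjusted p-value below 0.05, at 0.0415 from limma, and it was 0.107 to 0.147 when DM rat 1, 2 or 3 or ND rat 3 was left out. Nr5a1, a further nuclear receptor of steroid-producing cells, was at 3.29 ± 0.559 FPKM in the DM and 3.32 ± 0.458 FPKM in the ND rats (SD, n = 3 each).

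Set beside the receptor Lhcgr, with a log2 fold change of -0.999, that of Nr4a1 was 0.11. The 5 Leydig cell markers found, Cyp11a1, Nr5a1, Star, Lhcgr and Insl3, are all in the luteinizing hormone list, and 4 of the 6 calls above are theirs. The summed level of the 5 was 21.9 to 48.5 FPKM in the DM rats and 58.1 to 82.8 FPKM in the ND rats. In whole tissue, fewer Leydig cells and less RNA per cell cannot be told apart, and which cells the Nr4a1 transcripts came from was not tested.

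**Figure D4:**
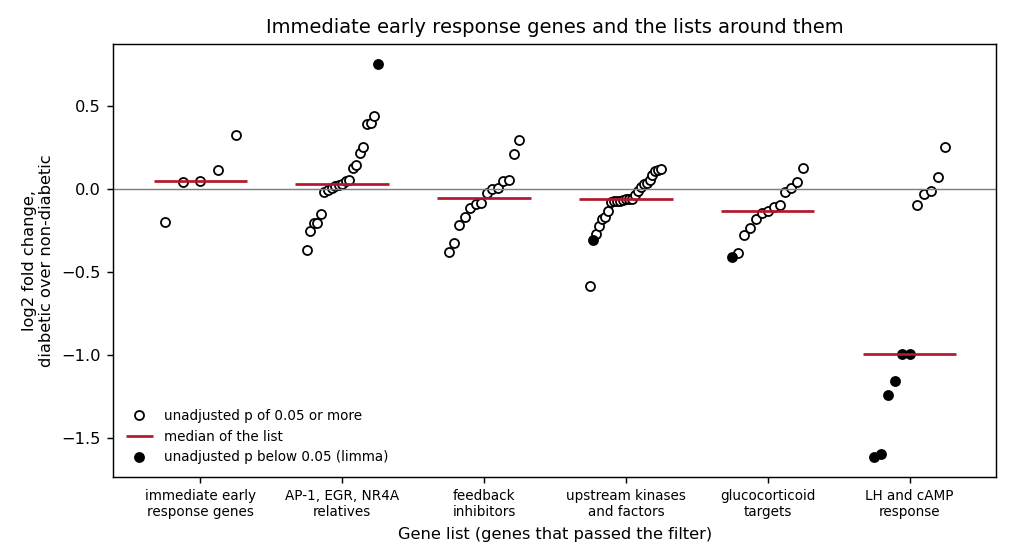
Log2 fold change of DM over ND rats (vertical axis) of each gene that passed the filter in the immediate early response genes and the 5 lists around them (horizontal axis), with filled points at an unadjusted p-value below 0.05 in limma and a red line at each median. The medians of the first 5 groups lie between -0.13 and 0.044, and that of the luteinizing hormone and cyclic AMP list lies at -0.996.

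Markers of other cells moved in part with the groups, read against the 4.99% of all genes tested that were lower and the 2.47% that were higher in the DM rats at an unadjusted p-value below 0.05 in limma. Of the 6 macrophage markers, 3 were lower at that threshold. The sums of the 6 overlapped at the edge, with 27.02 to 32.43 FPKM in the DM and 32.35 to 34.73 FPKM in the ND rats. Most of each sum came from a single marker that was not among the 3. It was at 18.5 to 23.5 FPKM in the DM and 21.2 to 22.0 FPKM in the ND rats. Of the 4 fibroblast markers found, 3 were lower, and the sums of 10.3 to 11.3 FPKM in the DM and 14.5 to 22.0 FPKM in the ND rats did not overlap. The sums of 6 Sertoli, 5 smooth muscle and peritubular, 4 endothelial, 5 spermatogonial, 5 spermatocyte, 5 spermatid and 6 blood marker rows overlapped between the groups. A single gene made up most of the Sertoli, spermatogonial, spermatocyte and blood sums, so their overlap says little about the other markers. Single calls were 1 higher and 1 lower of the 5 spermatogonial markers and 1 lower of the 5 blood marker rows tested. The part of these cells in the levels of the immediate early response genes was not tested.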

How the data were processed

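RNA-Seq of 3 diabetic and 3 non-diabetic rat testes was used, with groups taken from the sample labels. Per the methods, read quality was assessed in FastQC, rRNA was screened with BWA, STAR served for alignment and StringTie for assembly, and the authors deposited FPKM per gene. The build and the versions are not given in the sources used here. FPKM are not counts, so the DESeq2 screen of the methods could not be repeated.

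Values were transformed to log2(FPKM + 0.1), and genes that averaged 0.5 FPKM or more were compared with limma 3.58.1 in R 4.3.3 (lmFit, eBayes with trend, two-sided), with Benjamini-Hochberg adjustment over all 20338 genes. This scale understates changes of low genes. Single genes were compared with the two-sided exact permutation test of scipy 1.17.1. The limma step was run on simulated data with independent normal noise on the log2 scale and without the filter. Such data carry no effects shared between the genes of a rat and so do not test for them. The genes described, the lists and the tests were chosen with earlier results of these data known. The genes named are the 10 immediate early response genes, up to 4 genes per list with the smallest unadjusted p-values, genes of the luteinizing hormone list and the 5 most alike in pattern. Klf4, Plk2, Per1 and Jund, in the closing section, fall outside this rule and were chosen after their values were seen. Gene types came from RefSeq (GRCr8), whose symbols matched 17294 of the 35291 genes. Of 15 pairs of rats, 14 were within 0.1% of the fitted relative depths. The reads behind a value are unknown, so precision rests on the spread between 3 rats. No pair of rats had identical values, and correlations of log2 values between rats were 0.957 to 0.966. The alternatives were other pseudocounts and filters, median-ratio scaling, eBayes without trend, the replicate number as a block and leaving out each rat.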

Additional observations from a re-analysis of the deposited data

How the results depend on the processing

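In limma, 0 of the immediate early response genes that were in the fit had an unadjusted p-value below 0.05 under each of the 13 alternatives run. The alternatives were pseudocounts of 1 and 0.01, dropping the filter, raising it to 1 FPKM and median-ratio scaling. They also included eBayes without trend, the replicate block and leaving out each of the 6 rats. All 10 genes were in the fit without a filter and 4 in the fit at 1 FPKM. The other fits held 5 of them, as Fos, Fosb, Egr1, Ier2 and Atf3 fell under the filter. Same-numbered DM and ND rats had correlations of their deviations of 0.106, 0.015 and 0.098, and differently numbered ones of -0.126 to 0.032. What the replicate numbers stand for is not stated in the sources used here, and these values do not settle whether they mark a pairing. In the replicate block fit, 9 genes of the lists had an unadjusted p-value below 0.05, against 9 without it, but Rps6ka3 was lost and Mt1 gained, and the adjusted p-value of Cyp17a1 from limma was 0.186. That of Cyp17a1 was 0.0788 without a filter and 0.0909 with eBayes without trend. That of Scarb1 was 0.0467 with a pseudocount of 1 and 0.0416 with the filter raised to 1 FPKM, and that of Lhcgr was 0.0425 with eBayes without trend.

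The number of immediate early response genes whose groups did not overlap was 1 with all rats and 1 to 3 when a rat was left out. It was 2 without DM rat 2, ND rat 1 or ND rat 3 and 3 without DM rat 3 or ND rat 2, where smaller groups separate more easily by construction. With each rat left out, the log2 fold change was -0.011 to 0.33 for Nr4a1, -0.029 to 0.12 for Jun, -0.11 to 0.15 for Junb, -0.21 to 0.022 for Nr0b1, -0.14 to 0.10 for Nr5a1 and -0.082 to 0.0048 for Crem, so their signs changed. Under median-ratio scaling it was 0.013 for Nr5a1. With each rat left out and no change of sign, it was -0.34 to -0.069 for Egr3 and 0.24 to 0.44 for Ier3, and the log2 difference was 0.27 to 0.78 for Atf3, 0.034 to 0.60 for Fosb, -0.46 to -0.023 for Fos, -0.39 to -0.011 for Egr1 and -0.51 to -0.24 for Ier2. With a pseudocount of 1, which shrinks low genes by construction, the log2 difference was -0.12 for Ier2, 0.11 for Atf3, 0.071 for Fosb, -0.072 for Fos and -0.066 for Egr1, and with one of 0.01 it was -0.49, 0.93, 0.49, -0.26 and -0.24. The causes of the other changes were not tested. The number of list genes at an unadjusted p-value below 0.05 was 7 to 12 with a rat left out. Some of these were not called with all rats. In limma the unadjusted p-value was 0.0184 for Spred1 and 0.0199 for Dusp1 without DM rat 3, and 0.0424 for Spred1 without ND rat 3. It was 0.0058 for Elk4 without DM rat 2 and 0.0139 for Gem without DM rat 1. For Mt1 it was 0.0449 without DM rat 3 and 0.0412 without ND rat 1. Their adjusted p-values from limma in these fits were 0.55 to 0.684. Fos, Fosb, Egr1, Ier2 and Atf3 rest on values below 0.6 FPKM, where depth limits what can be seen.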

Other observations

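Several genes of the lists were more abundant than each of the immediate early response genes, and are named after their values were seen. Klf4, a zinc finger factor known from round spermatids, was at 24.3 ± 4.07 FPKM in the DM and 23.7 ± 1.07 FPKM in the ND rats (SD, n = 3 each). The polo-like kinase gene Plk2 was at 21.9 ± 0.568 FPKM and 21.6 ± 0.685 FPKM, and the clock gene Per1, a glucocorticoid target, at 19.1 ± 2.16 FPKM and 19.3 ± 0.751 FPKM (SD, n = 3 each). Jund, the JUN protein gene that is expressed without a stimulus in many tissues, was at 6.88 ± 0.891 FPKM in the DM and 6.76 ± 0.933 FPKM in the ND rats (SD, n = 3 each), above Jun in every rat. The groups overlapped for each of these genes, as for most genes, since 11.5% of the 30782 genes above 0 did not overlap. Of the 21 AP-1, EGR and NR4A relatives tested, 3 did not overlap with the DM rats higher and 2 with the DM rats lower. No share over the genes that passed the filter, or for the DM rats higher alone, is given here. No more is therefore read from these counts.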
